A study of Mus musculus with 9 samples.

Results

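The 81 genes described here encode subunits of the oxidative phosphorylation machinery and their nuclear isoforms. Their transcripts were measured in mouse aorta, in males of the genotypes BMAL+/+ and BMAL-/-. BMAL1, the product of Arntl, is a transcription factor of the positive arm of the circadian clock. Members were chosen by gene symbol alone, among the 18193 genes that have a probe set of their own on the array. The 81 genes have 164 such probe sets, and 48 genes have more than 1. Each gene was represented by its brightest probe set, and the others were used to compare readings of the same gene. By symbol, 35 genes belong to complex I, 4 to complex II, 8 to complex III, 17 to complex IV and 17 to complex V. Ndufa4, which is known as a component associated with complex IV, was counted in complex I because of its symbol. Subunits with no probe set of their own, such as Cox7b and Ndufa11, were not analysed here, nor were those that mitochondrial DNA encodes.

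Oxidative phosphorylation takes place in the inner mitochondrial membrane. Complexes I and II pass electrons from NADH and succinate to ubiquinone, complex III passes them to cytochrome c, complex IV passes them to oxygen, and complex V uses the proton gradient built on the way to make ATP. Some subunits of complex IV exist as isoforms: Cox6a2, Cox7a1 and Cox8b are known from heart, skeletal muscle and brown fat, whereas Cox6a1, Cox7a2 and Cox8a are made in most tissues. The aorta is mainly a smooth muscle tissue, and the fat around it is rich in brown adipocytes in mice.

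The BMAL+/+ group holds 5 arrays, named F01, F04, F07, F09 and F10. The BMAL-/- group holds 4, named F02, F03, F05 and F08, and the labels call them biological replicates. All animals were male and partially backcrossed onto C57Bl/6J. A light and dark cycle of 12 h each, kept for 2 weeks or longer, was followed by 30 h or more of constant darkness, and the aorta was taken at ZT14 after perfusion. The labels name the thoracic part, but also a dissection from the arch to past the femoral branching. Neither the ages of the animals nor the deleted part of Arntl is given in the labels. The source name of F01 says BMAL-/-, while its title and strain say BMAL+/+. Values are deposited log2 expression values, with a floor between about 1.5 and 3 and no detection flag. Members with a mean under 4 were taken as near the floor.

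Before any subunit was compared, 2 arrays stood against their labels and 3 stood apart in a control that compares the 3′ and 5′ ends of a transcript. The Arntl probe set read 2.74 to 2.82 on F01, F07, F09, F10 and F05, and 5.87 to 6.67 on F02, F03, F08 and F04. Whether that probe set lies outside the deleted part is not given, so it checks no genotype. F04 and F05 thus carried the Arntl reading of the other label, and Npas2 and Nr1d2, both clock genes, did the same. Every comparison below is therefore given for all 9 arrays and for the 7 without F04 and F05. The 3′ β-actin control probe set exceeded the 5′ one by 4.24 log2 units on F02, 4.20 on F03 and 3.91 on F04, against 1.38 to 2.72 on the other 6 arrays. The Gapdh controls separated the same 3 arrays. In the 7 arrays, F02 and F03 make up 2 of the 3 BMAL-/- arrays, so the control difference and the genotype label largely run together there. Markers of smooth muscle (all 8 measured, among them Myh11) were highest in sum on F07 and lowest on F03. Their summed log2 level was 15.002 to 15.855 in BMAL+/+ and 14.60 to 15.63 in BMAL-/-, so the labelled tissue showed its markers on every array. In bulk tissue, fewer cells of a type and less RNA per cell cannot be told apart.

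Over all 9 arrays, no subunit of oxidative phosphorylation differed between the labels beyond the spread of the replicates. In limma with Benjamini-Hochberg adjustment over the whole array, 0 of 81 genes passed an adjusted p of 0.05, against 0% of the 45037 probe sets tested, and the smallest adjusted p of a member was 0.37. An unadjusted p under 0.05 was reached by 3 members, all higher in BMAL-/-. They were Cox4i2 (+0.10), Cox7b2 (+0.05) and Cox8c (+0.01), and all lie at the floor. The background was 7.92% of probe sets higher and 0.75% lower at that p, or 1.52% and 1.43% above the median brightness. One-way analysis of variance, which the submitters name as the design, likewise left 0 members after adjustment and 3 before it. Of the 81 genes, 46 had a higher mean in BMAL-/- and 35 a lower one, and the median difference was 0.03 log2 units, as over all probe sets (0.03). No member had groups that did not overlap, against 0.773% of all probe sets.

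Without F04 and F05, many subunits read higher in BMAL-/-, but again none passed the adjusted threshold. The smallest adjusted p among members was 0.208 in limma, and 0 of 81 passed, against 0.00888% of all probe sets. An unadjusted p under 0.05 was reached by 29 of 81 members (35.8%), all 29 higher. Over the whole array 20% of probe sets were higher and 3.7% lower at that p. Above the median brightness the shares were 7.07% higher and 7.23% lower, whereas 26 of the 74 members with a mean of at least 4 (35.1%) were higher and 0 lower. The groups did not overlap for 23 members, against 17.5% of all probe sets. Over the same 7 arrays the mean of all 8 smooth muscle markers was lower in BMAL-/-, with F02 and F03 lowest in sum. All 6 macrophage markers (median -1.61) and 4 of 6 fibroblast markers (median of the list -1.39) were lower too, with 5 and 4 of them at an unadjusted limma p under 0.05 and 0 passing the adjusted threshold. Of the heart muscle markers, 9 of 10 were lower (median -1.93), 1 of them at an unadjusted limma p under 0.05. Skeletal muscle markers went the other way, with 9 of 10 higher (median 1.20) and 0 at that p. Of the endothelium, brown fat and white fat markers, 5 of 7, 4 of 7 and 3 of 5 were lower. The part of tissue composition in the subunit values was not tested. Without F08, which leaves F02 and F03 alone in BMAL-/-, 20 members passed the adjusted threshold, 15 higher and 5 lower. In that comparison 32.6% of all probe sets passed as higher and 3.93% as lower, so the count is no result about the subunits.

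**Figure D1:**
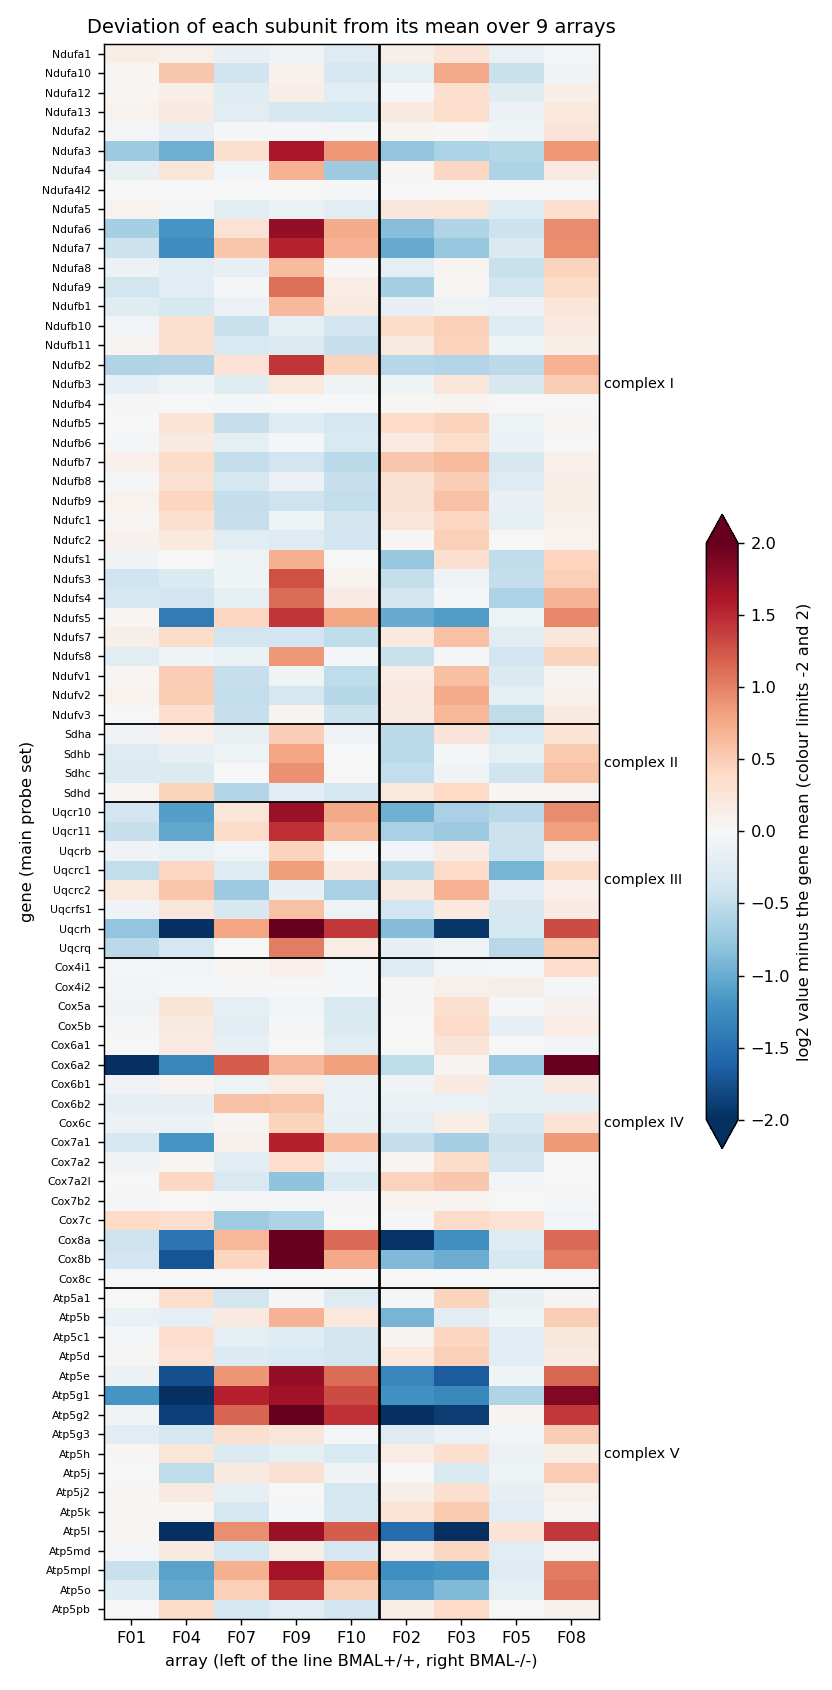
Deviation of each of the 81 subunits from its own mean over the 9 arrays, in log2 units, with 1 row per gene sorted by complex and 1 column per array; the vertical line divides BMAL+/+ from BMAL-/- and colours stop at -2 and 2. Small deviations in red on F02, F03 and F04 (many Ndufb genes) stand beside large ones in blue on the same 3 arrays (Atp5g2, Atp5l, Uqcrh, Atp5e).

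Among complex I, which carries electrons from NADH, the values of the membrane-arm accessory subunits Ndufb7, Ndufb9 and Ndufb10 were highest on F02, F03 and F04. Ndufb10 read 12.29, 12.67, 11.90, 12.15 and 11.97 on F01, F04, F07, F09 and F10, and 12.71, 12.82, 12.09 and 12.54 on F02, F03, F05 and F08. F04 lay with F02 and F03, F05 lay with the BMAL+/+ arrays, and the groups overlapped. The difference was 0.35 ± 0.20 (limma SE) over 9 arrays. Over 7 arrays it was 0.62 ± 0.14 with no overlap (limma adjusted p = 0.208). The exact permutation p for it was 0.0286, the smallest that 35 splits of 7 arrays can give. Ndufb7 and Ndufb9 differed by 0.75 ± 0.21 and 0.67 ± 0.18 over 7 arrays. Their other probe sets above the floor went the other way, by -0.92 and -0.43.

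The other families of complex I did not go one way. By brightest probe set over 7 arrays, 8 of 9 Ndufb genes above the floor and 8 of 12 Ndufa genes had a higher mean in BMAL-/-. Both Ndufc genes and all 3 Ndufv genes did so too, but only 1 of 6 Ndufs genes did. Ndufs7, an iron-sulfur subunit of the electron path to ubiquinone, read 13.45, 13.69, 12.96, 12.95 and 12.82 on the BMAL+/+ arrays in the order above, and 13.52, 13.92, 13.12 and 13.55 on the BMAL-/- arrays. Its difference was 0.36 ± 0.22 over 9 arrays and 0.62 ± 0.18 over 7, but its other probe set differed by -0.28 over 7. Ndufv2, a subunit of the NADH-oxidising module, differed by 0.67 ± 0.22 over 7 arrays, and Ndufa13, an accessory subunit, by 0.46 ± 0.13. Other probe sets of Ndufv2 differed by 0.75 and -0.58 over 7. In all, 15 of 35 complex I genes reached an unadjusted limma p under 0.05 over 7 arrays, all higher. At that p, 20% of all probe sets were higher, and 7.07% of those above the median brightness. The median difference of the complex was 0.11 over 9 arrays and 0.26 over 7. The 5 other Ndufs genes had a lower mean by brightest probe set. Ndufs1, Ndufs3, Ndufs4 and Ndufs8 differed by -0.13, -0.25, -0.09 and -0.13 over 7 arrays. Other probe sets of Ndufs8 above the floor differed by 0.71, 0.73, -0.03 and -0.10 over 7 arrays, and those of Ndufs4 by 0.89 and 0.43. The direction of these genes thus depended on the probe set. Ndufs5, an accessory subunit, differed by -0.57 ± 0.62 and -1.06 ± 0.58, with its lowest values on F04 (9.67), F03 (9.96) and F02 (10.06). The difference of Ndufa4 was -0.0015 over 9 arrays and 0.26 ± 0.33 over 7, while Ndufa4l2 and Ndufb4 stayed at the floor (2.13 to 2.33 on every array).

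Complex II oxidises succinate and is also an enzyme of the citric acid cycle. Sdha, its flavoprotein, read 12.03, 12.20, 11.95, 12.60 and 12.03 on the BMAL+/+ arrays and 11.58, 12.35, 11.80 and 12.38 on the BMAL-/- arrays. The groups overlapped widely, with differences of -0.14 ± 0.21 over 9 arrays and -0.05 ± 0.26 over 7. Sdhb, the iron-sulfur subunit, and Sdhc, a membrane anchor, were highest on F09 (12.86 and 11.04) and differed by -0.12 ± 0.27 and -0.16 ± 0.31 over 9 arrays. By brightest probe set, the other anchor, Sdhd, had the only positive difference, 0.31 ± 0.21 over 9 arrays and 0.49 ± 0.18 over 7. Its groups overlapped in both, and its other probe set differed by -0.21 over 9 arrays and -0.17 over 7.

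Complex III passes electrons from ubiquinol to cytochrome c, and some of its subunits were spread widely between the arrays of each label. Uqcrh, the hinge protein, had the widest range of all 81 genes. It read 10.11, 8.69, 11.68, 13.54 and 12.30 on F01, F04, F07, F09 and F10, and 10.02, 8.94, 10.53 and 12.19 on F02, F03, F05 and F08. Both groups held high and low arrays, and the differences were -0.84 ± 1.02 over 9 arrays and -1.53 ± 1.01 over 7. Uqcrfs1, the Rieske iron-sulfur protein, stayed between 11.71 and 12.68 (-0.15 ± 0.21 and -0.03 ± 0.26). Uqcrb, which takes part in ubiquinone binding, differed by -0.09 ± 0.16 and -0.01 ± 0.15, and its other probe set by -0.52 and -0.60. Uqcrc2, a core protein, was the 1 gene of the complex with an unadjusted limma p under 0.05 over 7 arrays (0.65 ± 0.27). Its groups overlapped, and its other probe set differed by -0.39 over 7. The median difference of the complex was -0.23 over 9 arrays and -0.05 over 7.

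Complex IV reduces oxygen. By brightest probe set, most of its common subunits differed little. Cox4i1, a regulatory subunit, read 13.36, 13.33, 13.41, 13.49 and 13.35 on the BMAL+/+ arrays and 13.13, 13.34, 13.36 and 13.74 on the BMAL-/- arrays. Its difference was 0.00 ± 0.12 over 9 arrays. Cox6b1 differed by 0.05 ± 0.10 and 0.13 ± 0.11, and Cox5b by 0.18 ± 0.14 over 9 arrays and 0.33 ± 0.12 over 7. The other Cox6b1 probe set differed by -0.30 over 9 arrays and -0.36 over 7. Other Cox5b probe sets above the floor differed by 0.35, 0.38, -0.01 and 0.09 over 7. Cox7a2l, a factor in the joining of complexes III and IV, differed by 0.42 ± 0.25 and 0.67 ± 0.23. Other probe sets of Cox7a2l differed by 0.45 and -0.79 over 7 arrays. The median over the 10 genes that are not tissue-restricted was 0.07 over 9 arrays and 0.15 over 7.

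Complex V is made of a membrane rotor and a catalytic head. Of its 17 genes, 6 had an unadjusted limma p under 0.05 over 7 arrays, all higher. At that p, 20% of all probe sets were higher, and 7.07% of those above the median brightness. Among the 6 were Atp5d and Atp5c1, of the central stalk, and Atp5h, Atp5pb and Atp5k, of the peripheral stalk and membrane part. Atp5d read 12.42, 12.69, 12.13, 12.09 and 12.04 on the BMAL+/+ arrays and 12.61, 12.88, 12.19 and 12.58 on the BMAL-/- arrays. Its difference was 0.29 ± 0.18 over 9 arrays, where the groups overlapped, and 0.52 ± 0.14 over 7, where they did not. The other Atp5d probe set differed by -0.65 over 7. Atp5g2, 1 of the genes for the c subunit of the rotor ring, read 9.15, 7.37, 10.39, 11.36 and 10.69 on the BMAL+/+ arrays and 6.84, 7.33, 9.29 and 10.64 on the BMAL-/- arrays. F02, F03 and F04 were the low arrays, and its differences were -1.27 ± 0.999 over 9 arrays and -2.13 ± 0.99 over 7, with overlap in both (exact permutation p = 0.171 over 7). The median of the complex was 0.04 over 9 arrays and -0.03 over 7.

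**Figure D2:**
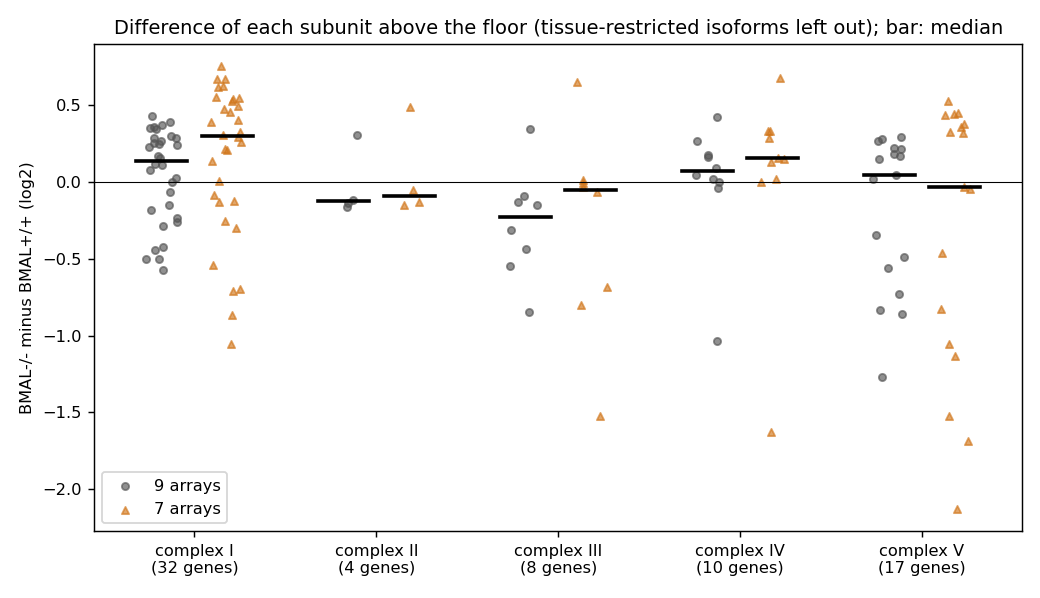
Difference of each subunit, BMAL-/- minus BMAL+/+ in log2 units, by complex, for 9 arrays (grey circles) and for the 7 without F04 and F05 (orange triangles); 7 genes near the floor and the tissue-restricted isoforms are left out, points are spread sideways for clarity, and the black bar is the median of the plotted genes. The plotted complex I genes have a median of 0.13 over 9 arrays and 0.30 over 7, and over 7 arrays complexes I, III and IV each hold 1 gene below -1 and complex V holds 5.

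The medians of the complexes did not separate them firmly. Complex I had positive medians over 9 and 7 arrays, under quantile normalization and centring of the arrays, and when any 1 array was left out (0.04 to 0.18 over 9 arrays and 0.16 to 0.34 over 7). The medians of complexes II and V took either sign when 1 array was left out (-0.28 to 0.06 and -0.12 to 0.12 over 9 arrays). Complex III kept a negative median over 9 arrays in those comparisons (-0.41 to -0.07) but not over 7 (-0.24 to 0.14). With only the brightest probe set whose identifier has no letter, the median of complex I was -0.14 over 9 arrays and that of complex V -0.34.

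The 3 arrays with the wide actin difference divided the subunits into a group that read low on them and a group that read high. The values of F02, F03 and F04 all lay below those of the other 6 arrays for 16 of the 74 subunits above the floor, and all above them for 18. Among all 18212 probe sets with a mean of at least 4, these shares were 11.7% below and 9.39% above, against 21.6% and 24.3% of the subunits. This split of the arrays follows the control and was made after the values were seen, and 2 of its 3 arrays carry the BMAL-/- label. Their part in the differences between genotypes was not tested.

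The low group held subunits of 4 complexes, with differences from -0.19 (Cox4i1) to -3.08 (Atp5g2). Atp5l, subunit g of complex V, read 9.14, 8.70 and 8.63 on F02, F03 and F04, and 10.73, 10.95, 11.62, 12.10, 12.41 and 11.89 on F01, F05, F07, F08, F09 and F10. The mean of the 3 arrays minus that of the other 6 was -2.79 for Atp5l, -2.51 for Uqcrh, -2.36 for Atp5e, the epsilon subunit, and -2.33 for Cox8a. Of the 16 genes, 7 belong to complex V, 4 to complex IV, 3 to complex III and 2 to complex I.

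The high group was smaller in size of difference. It held 10 of the 32 complex I genes above the floor (31.25%) and 6 of the 17 complex V genes (35.3%). It also held 1 gene of complex II and 1 of complex IV, and its differences ran from 0.31 (Atp5j2) to 0.77 (Ndufb7). Of the 26 members above the floor that had an unadjusted limma p under 0.05 in the 7 arrays, 17 were in this group.

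Different probe sets of the same subunit often disagreed. Affymetrix puts a letter (a, s or x) in the identifier of a probe set whose probes can match more than 1 transcript, and the 58 subunit probe sets above the floor without a letter read differently from the 81 with one. Over 7 arrays the median difference was 0.29 for those with a letter and -0.21 for those without. All 26 main readings above the floor with an unadjusted limma p under 0.05 came from the 50 with a letter, and 0 from the 24 without. Of all subunit probe sets above the floor, 35 of 81 with a letter (43.2%) and 3 of 58 without (5.17%) were higher at that p. An Atp5a1 probe set without a letter had the smallest unadjusted limma p of them (0.000878, adjusted 0.208) and differed by 0.9997. Another Atp5a1 probe set without a letter differed by -0.40. Among the probe sets of all other genes with a mean of at least 4, the medians were 0.01 with a letter and -0.03 without. At an unadjusted limma p under 0.05, 9.24% of those with a letter were higher and 8.24% lower. Of those without a letter, 4.74% were higher and 8.4% lower. At a mean of at least 12, the medians were 0.39 (45 probe sets) and -0.05 (9) for subunits, and 0.04 (272) and -0.17 (78) for all other genes.

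Atp5h, subunit d of the peripheral stalk, shows the disagreement. Its brightest probe set, with the letter a, read 14.22, 14.43, 13.93, 14.02 and 13.89 on F01, F04, F07, F09 and F10, and 14.34, 14.54, 14.08 and 14.31 on F02, F03, F05 and F08. Its other probe set, without a letter, read 11.72, 10.46, 12.20, 12.91 and 12.38 on the same BMAL+/+ arrays, and 10.75, 10.76, 11.73 and 12.65 on the BMAL-/- arrays. F02, F03 and F04 were the 3 highest arrays of the first and the 3 lowest of the second. Over the 43 subunits with another probe set above the floor, 30 of 65 other probe sets (46.2%) had the opposite sign to the main one over 9 arrays. Over 7 arrays 30 of 65 did so. The matching share for all other genes with several probe sets was not computed, so these counts show no trait particular to the subunits. For the 18 subunits that read high on the 3 arrays, 16 of 22 other probe sets read lower there. For the 16 that read low, 8 of 9 other probe sets were also lower.

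**Figure D3:**
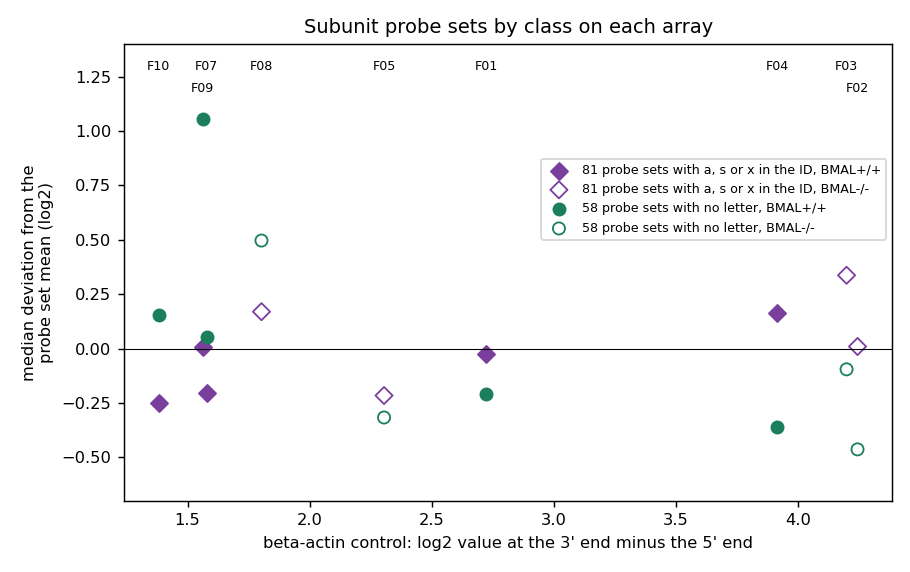
Median deviation of the subunit probe sets from their own means, in log2 units, on each array, against the β-actin control difference of that array; diamonds are the 81 probe sets with a letter, circles the 58 without, filled for BMAL+/+ and open for BMAL-/-. Of the arrays with the wide difference, F02, F03 and F04, the circles lie at -0.46, -0.10 and -0.36 and the diamonds at 0.01, 0.34 and 0.16. On the other arrays the circles run from -0.32 on F05 to 1.06 on F09 and the diamonds from -0.25 on F10 to 0.17 on F08, so the classes overlap between the 2 kinds of array.

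The tissue-restricted isoforms of complex IV overlapped widely between the labels. Cox6a2, the heart and skeletal muscle form, read 4.64, 5.64, 8.16, 7.60 and 7.78 on F01, F04, F07, F09 and F10, and 6.44, 7.01, 6.19 and 9.09 on F02, F03, F05 and F08. It was lowest on F01 and highest on F08, and differed by 0.42 ± 0.87 over 9 arrays and 0.47 ± 1.01 over 7. The 10 skeletal muscle markers, all measured, were likewise lowest in sum on F01 (8.14) and highest on F08 (15.31), with 9.62 to 12.89 for Acta1 on the BMAL+/+ arrays other than F01 (5.56 there). Their summed log2 level was 8.14 to 14.96 in BMAL+/+ and 11.49 to 15.31 in BMAL-/-, and their part in the Cox6a2 values was not tested. The 10 heart muscle markers, all measured, ranged from 10.05 to 13.83 in sum in BMAL+/+ and from 10.61 to 13.95 in BMAL-/-, with the lowest sum on F04 and the highest on F03.

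Cox7a1 and Cox8b, the heart, skeletal muscle and brown fat forms, were highest on F09 and lowest on F02, F03 and F04, the arrays with the wide actin difference. Cox7a1 read 11.14, 10.30, 11.57, 13.03 and 12.09 on the BMAL+/+ arrays and 11.00, 10.81, 11.05 and 12.34 on the BMAL-/- arrays. Cox8b read 10.62, 9.28, 11.43, 13.11 and 11.76, and 10.11, 10.00, 10.64 and 12.02. Both groups had high and low arrays, and the differences were -0.33 ± 0.54 and -0.54 ± 0.74 over 9 arrays, and -0.58 ± 0.55 and -1.02 ± 0.71 over 7. The 7 brown fat markers measured, of 8 listed, were also highest in sum on F09 (15.68), with ranges of 14.20 to 15.68 in BMAL+/+ and 13.78 to 15.21 in BMAL-/-. Ucp1, the uncoupling protein that defines brown fat, read 13.10 to 14.68 on all arrays. Of the 7 markers, only 1, Cidea, was lowest on F02, F03 and F04. The summed level of the list on F04 (14.39) was above those on F01 (14.20) and F07 (14.21). The part of brown fat and of the actin difference in these values was not tested.

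Cox8a, the common counterpart of Cox8b, read 7.98, 6.91, 9.06, 10.78 and 9.52 on the BMAL+/+ arrays and 6.43, 7.17, 8.15 and 9.52 on the BMAL-/- arrays, and was highest on F09 as well. The difference between the pair gave the lowest p of the 4 isoform pairs compared. Cox8b minus Cox8a, each log2 value taken on the same array, was 2.63, 2.36, 2.37, 2.33 and 2.24 on F01, F04, F07, F09 and F10, and 3.68, 2.83, 2.49 and 2.50 on F02, F03, F05 and F08. F01 lay above F05 and F08, so the groups overlapped. The mean was 2.39 ± 0.15 (SD, n = 5) in BMAL+/+ arrays and 2.87 ± 0.56 (SD, n = 4) in BMAL-/- arrays, a difference of 0.49 ± 0.26 (SE). The two-sided exact permutation p was 0.0476, and 0.19 after Benjamini-Hochberg adjustment over the 4 pairs. Over 7 arrays it was 0.61 ± 0.31 (exact permutation p = 0.0571, adjusted 0.229). Without F02 the difference was 0.22 over 9 arrays and 0.27 over 7, and over the 6 arrays with the narrower actin difference it was 0.10. These values use the brightest Cox8a probe set (mean 8.39). Another, with a mean of 8.17, read 5.88, 6.63 and 5.98 on F02, F03 and F04, and 7.88 to 10.73 on the other 6 arrays. The mean of those 3 arrays minus that of the other 6 was -3.00 for it, -2.33 for the brightest and -1.80 for Cox8b. The contrast with it is not given here, and the part of the actin difference was not tested. The value of such a contrast says how the 2 readings differ between groups, not which isoform is more abundant.

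The other pairs showed no difference beyond the spread. Cox7a1 minus Cox7a2 averaged -1.56 ± 0.93 (SD, n = 5) on BMAL+/+ arrays. It averaged -1.91 ± 0.80 (SD, n = 4) on BMAL-/- arrays, and the means differ by -0.35 ± 0.59 (SE). The exact permutation p was 0.556 over 9 arrays and 0.286 over 7, where the difference was -0.73 ± 0.60. Cox6a2 minus Cox6a1 differed by 0.33 ± 1.03 and 0.32 ± 1.24, with exact permutation p of 0.77 and 0.829. Cox4i2 minus Cox4i1 differed by 0.09 ± 0.13 and 0.08 ± 0.17, with Cox4i2, known from lung and hypoxic cells, at the floor (2.25 to 2.43). Cox6b2, Cox7b2 and Cox8c, known from testis, were also near the floor (1.79 to 3.16).

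**Figure D4:**
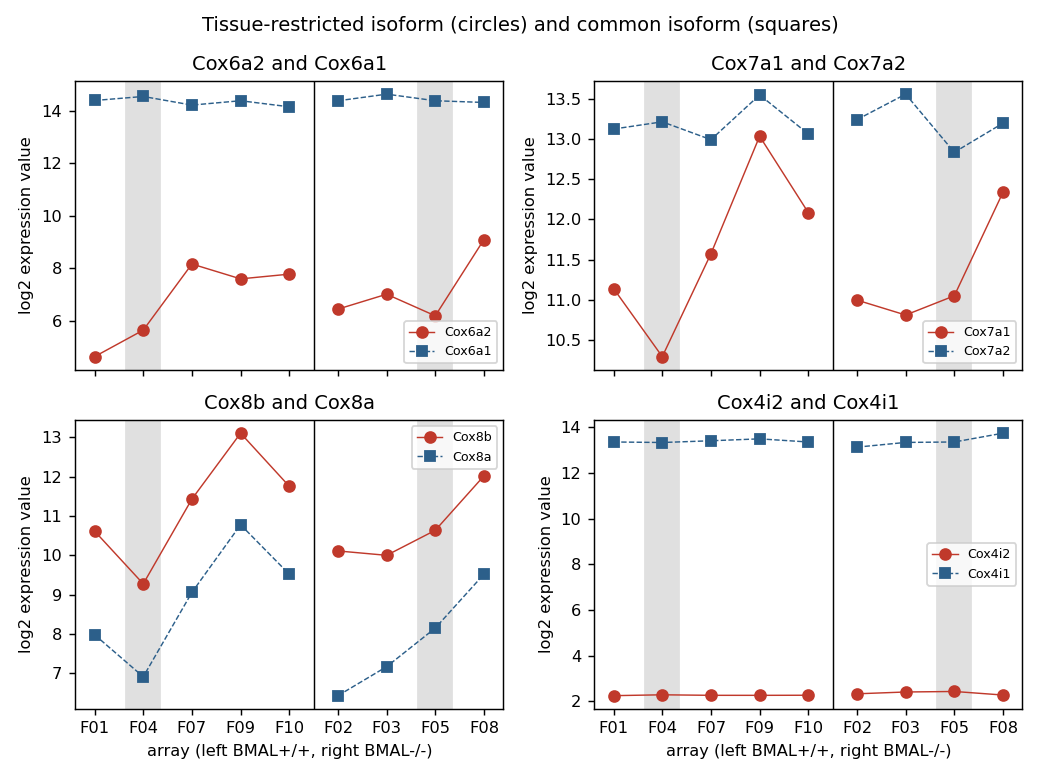
Log2 expression values of the tissue-restricted isoform (red circles) and the common isoform (blue squares) of 4 complex IV subunits on each array, BMAL+/+ left and BMAL-/- right of the vertical line, with F04 and F05 shaded; the vertical scale differs between panels. Cox7a1, Cox8b and Cox8a peak on F09 and dip on F04, and Cox6a2 ranges from 4.64 on F01 to 9.09 on F08.

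The promoters of the Cox8 pair are shown because this contrast gave the lowest p. Each sequence is the 250 bases before the start of the gene, 5′ to 3′ on its strand, from RefSeq on GRCm38.p6, with matches to 6 searched motifs in capitals. The Cox8b window lies at chr7:140900447-140900696 and the Cox8a window at chr19:7217617-7217866, both on the minus strand. The motifs, searched on both strands, were CACGTG (the E-box of BMAL1 and CLOCK), CAGCTG (the E-box of myogenic factors), GCGCATGC (the core that NRF1 binds), CCGGAAG (an ETS core), AAGGTCA (a site of estrogen-related receptors) and TATAAA (the TATA box). No matches overlap in the windows shown.
Cox8b: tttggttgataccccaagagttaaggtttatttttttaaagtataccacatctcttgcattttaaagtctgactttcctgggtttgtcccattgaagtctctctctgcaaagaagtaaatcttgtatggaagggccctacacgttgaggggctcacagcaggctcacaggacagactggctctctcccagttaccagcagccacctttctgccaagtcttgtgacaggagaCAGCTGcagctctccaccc
Cox8a: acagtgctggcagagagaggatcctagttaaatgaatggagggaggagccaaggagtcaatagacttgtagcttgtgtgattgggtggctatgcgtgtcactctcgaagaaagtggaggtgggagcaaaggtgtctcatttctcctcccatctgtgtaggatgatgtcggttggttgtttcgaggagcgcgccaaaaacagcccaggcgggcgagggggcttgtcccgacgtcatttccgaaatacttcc
The Cox8b window holds 1 match, CAGCTG, the form of the E-box that myogenic factors bind, and the Cox8a window holds none of the 6. CAGCTG occurs in 8.45% of the subunit windows and in 13% of all 32851 windows of that length. A match describes the letters and shows no binding. Cox6a2, Cox4i1 and Cox4i2 have no window in the table.

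The canonical E-box CACGTG, to which BMAL1 binds with CLOCK, was found in 7 of the 71 subunit windows (9.86%), of 6 of the 66 genes that matched, against 6.02% of all windows. The 6 genes are shown because they are the members whose promoter letters bear on the deleted factor. Each stretch is from RefSeq on GRCm38.p6, 5′ to 3′ on the strand of the gene, with the E-box in capitals beside its nearest bases within the window.
Atp5g1: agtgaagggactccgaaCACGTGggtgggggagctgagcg
Atp5g3: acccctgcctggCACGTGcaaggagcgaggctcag
Atp5l: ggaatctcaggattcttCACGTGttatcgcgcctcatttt
Atp5pb: aCACGTGgtgtacctctgcgcaac
Ndufa7: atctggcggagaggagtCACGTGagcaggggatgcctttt
Ndufv1: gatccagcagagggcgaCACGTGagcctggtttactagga
The stretches lie at chr11:96075653-96075692, chr2:73911542-73911576, chr9:44920867-44920906, chr3:105959490-105959513, chr17:33824483-33824522 and chr19:4012902-4012941 in that order, all on the minus strand but Ndufa7.

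These 6 genes went in both directions. Atp5pb, subunit b of the peripheral stalk, and Ndufv1, which carries the flavin of complex I, differed by 0.44 ± 0.13 and 0.53 ± 0.20 over 7 arrays. Their other probe sets differed by -0.74 (Atp5pb), and by 0.49 and -0.35 (Ndufv1). Atp5g1, another c subunit gene, read 6.58, 5.66, 9.31, 9.43 and 9.07 on F01, F04, F07, F09 and F10, and 6.54, 6.47, 7.16 and 9.62 on F02, F03, F05 and F08, with wide overlap. It differed by -1.05 ± 1.02 over 7 arrays, Atp5l by -1.68 ± 0.85 and Ndufa7 by -0.86 ± 0.61, all with overlap. Atp5g3 differed by -0.05 ± 0.23. None of the 6 passed the adjusted threshold in limma. Other motifs were more frequent in subunit windows than in all windows: GCGCATGC in 9.86% against 2.26%, and CCGGAAG in 16.9% against 6.91%. AAGGTCA was in 7.04% against 4.08% and TATAAA in 11.3% against 12.4%.

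Genes that build and feed the machinery, from lists chosen for mitochondrial function, also gave 0 calls over 9 and 7 arrays in limma. The lists were transcriptional regulators (14 of 14 measured), assembly factors (43 of 45), carriers and linked subunits (21 of 21) and citric acid cycle enzymes (16 of 17). Over 9 arrays, 1 regulator and none of the others had an unadjusted limma p under 0.05. Over 7 arrays, 4 regulators were higher and 1 lower, 6 assembly factors, 3 carriers and 2 cycle enzymes were higher and none lower, at that p. These are 28.6%, 14%, 14.3% and 12.5% of the lists as higher, beside 20% of all probe sets and 7.07% of those above the median brightness. The median differences over 7 arrays were 0.32, 0.21, 0.24 and 0.16.

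Ppargc1a, the coactivator that drives mitochondrial biogenesis, read 6.58, 7.40, 6.21, 6.97 and 6.20 on F01, F04, F07, F09 and F10, and 7.64, 7.52, 7.08 and 7.22 on F02, F03, F05 and F08. F04 lay among the BMAL-/- arrays, which were otherwise higher than every BMAL+/+ array. The 3 highest values were those of F02, F03 and F04, the arrays with the wide actin difference. The same held for 6 of the 14 regulators, Tfam among them, and for 10 of the 43 assembly factors, Cox11 and Coa6 among them. It held for 1 of 16 cycle enzymes, Pdk4, and for 1 of 21 carriers and linked genes. Among all probe sets with a mean of at least 4, 9.39% lay above the other arrays in this way and 11.7% below. Below them lay 4 assembly factors and 0 genes of the other lists. The part of the actin difference in these values was not tested. Ppargc1a differed by 0.70 over 9 arrays and 0.97 ± 0.24 over 7 (limma adjusted p = 0.208). Tfam, which binds mitochondrial DNA and takes part in its transcription, differed by 0.26 over 9 arrays and 0.54 ± 0.16 over 7. Nfe2l2, a regulator of antioxidant genes, differed by -0.62 ± 0.19 over 7 arrays. Of the assembly factors, Cox11, a copper chaperone of complex IV, differed by 0.999 ± 0.27 and Coa6, another, by 0.73 ± 0.24. Among carriers and linked genes, Coq8a and Coq5, of ubiquinone synthesis, differed by 1.10 ± 0.37 and 0.55 ± 0.18. Mdh2, malate dehydrogenase of the cycle, differed by 0.26 ± 0.10, and Pdk4, a kinase that restrains entry into it, by 0.79 ± 0.32. None of these passed the adjusted threshold.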

How the data were processed

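Transcript levels of 9 aorta samples were measured on Affymetrix mouse arrays, 1 array per sample. The deposited series table holds log2 expression values made by the authors. Per the submitters' processing notes, GCRMA and MAS5 were used, with roles and versions not given in the sources used here. The values were used as deposited. GCRMA lifts dim probe sets to a floor, where small shifts can look precise. Precision is limited by the number of arrays.

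After 64 control probe sets were left out, 45037 remained. The platform annotation names genes, and 9 subunit probe sets shared between genes were left out. Each was fitted with genotype alone in limma 3.58.1 under R 4.3.3 (lmFit, eBayes with a trend of variance on mean), and Benjamini-Hochberg adjustment covered the whole table. The fit was tested on simulated data. Single values were compared by two-sided exact permutation of the arrays, with scipy 1.17.1, over 126 splits of 9 arrays (smallest p 0.00794) or 35 of 7. Plots used matplotlib 3.10.9.

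Members and lists were chosen with earlier results of these data known. Genes named were the isoform pairs and, per complex, the 3 brightest rows and the 2 with the smallest limma p in either comparison, the 3 members of widest range, 2 genes per list and comparison, and markers. Other subunits, such as Ndufb7, Ndufs5, Ndufv2, Atp5e, Atp5j2, Atp5l and those with an E-box, were named after their values were seen. The alternatives were quantile normalization, centring, no variance trend, array weights, one-way analysis of variance, a brightness filter, a floor, averaging over each gene's probe sets, F01 in BMAL-/- and leaving out arrays. Chosen after seeing the data were the actin difference as a covariate, only the 6 arrays with a narrower difference, and only probe sets without a letter. With no statement of separate extraction, p-values measure the spread between these samples.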

Additional observations from a re-analysis of the deposited data

Results flagged for a closer look

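In 5 of 80 groups of 4 or 5 arrays tested, 1 array stood far from the others of its label, and chance gives about 1 in 20 such groups. On the BMAL+/+ array F09, the median deviation of complex II was 0.638, against -0.03 on the next array. Sdhb read 12.9 on F09, against 12.1 on the next BMAL+/+ array, Sdhc read 11.0 against 10.1, and Uqcrb read 14.3 against 13.8. On the BMAL-/- array F08, Cox7a1 read 12.3, against 11.1 on the next array. F09 is the array on which brown fat markers were highest in sum (15.68), and F08 has the highest such sum of the BMAL-/- arrays (15.21). Their part in these values was not tested.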

How the results depend on the processing

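The number of members with an unadjusted limma p under 0.05 over 9 arrays, 3, was 0 after centring, 12 with array weights (8 higher, 4 lower), 0 above the median brightness, 1 with F01 in BMAL-/-, 29 without F04 and F05, and 0 over the 6 arrays with a narrower actin difference, and it ran from 1 to 16 when 1 array was left out (1 without F02 or F03, 16 without F04, 11 without F05). Over 7 arrays, 29 became 5 with the actin difference as a covariate, 4 among probe sets without a letter (65 genes), and 12 to 35 when 1 array was left out (12 without F03, 15 without F10, 17 without F07, 19 without F02). The number passing the adjusted threshold ran from 0 to 20 there (20 without F08, where 32.6% of all probe sets passed as higher). Cox8b minus Cox8a was 0.10 over the narrower 6 arrays. With probe sets without a letter, the medians over 9 arrays were -0.21 (all members), -0.14 (complex I), -0.27 (IV) and -0.34 (V). Over 7 arrays they were -0.13, -0.11, -0.15 and -0.43, and -0.64 for complex III. With the covariate over 7 arrays, the medians were 0.27 (all members), 0.33 (complex II) and 0.26 (V). The median of all members over 7 arrays ran from 0.032 to 0.19 when 1 array was left out (0.19 without F02 or F09). Apart from fewer arrays and genes in some settings, the cause was not tested. No paired analysis was possible because the groups share no replicate numbers.

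Limits: values near the floor have no order, 7 members lie there, and the number of arrays limits detection. The wide actin difference, the labels and the discordant F04 and F05 cannot be told apart in full with these arrays.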

Other observations

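The citric acid cycle enzyme Ogdh, a subunit of the oxoglutarate dehydrogenase complex, read exactly alike to 2 decimals on several arrays (10.51 on F01, F04 and F03). Values within 1e-06 of each other on 3 or more arrays occurred in 3448 of 45037 probe sets (7.66%) and in 6 of the 164 subunit probe sets (3.66%).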
